A study of Mus musculus with 2 samples.

Results

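*Nkx2-1*, *Lhx6*, *Lhx8* and *Isl1*, 4 transcription factor genes of the ventral telencephalon (subpallium), were followed cell by cell in 2 single cell RNA sequencing (scRNAseq) libraries of the embryonic mouse forebrain. They were taken by symbol, as 4 of the 28001 features of the septal library and 4 of the 32286 features of the vesicle library, and no measured value entered that choice. The septal library was made from tissue around the septum, pooled from 8 E11.5 embryos carrying PGKCre and Rosa26YFP and 4 E12.5 embryos carrying Dbx1Cre and Rosa26tdTomato, each set from 2 litters. PGKCre acts in nearly all tissues, so that YFP marks no particular lineage, whereas Dbx1Cre turns on tdTomato in cells that descend from Dbx1-expressing progenitors. The vesicle library was made from the telencephalic vesicles of 3 wild-type embryos of 2 litters, aged E12 by the label and E11.5 to E12 by the study's methods. All embryos are given as C57BL/6J, and the label of both libraries calls the genotype wild-type although the septal embryos carried Cre and reporter alleles. Each condition is 1 pooled library in which embryos cannot be told apart, so that no test between cells was made, and the 2 libraries, which differ in kit, dissection and age, were described separately.

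The NKX2-1 homeodomain protein is induced by sonic hedgehog (*Shh*) in ventral progenitors and gives the medial ganglionic eminence (MGE) and the neighbouring preoptic and septal territories their identity. The LIM-homeodomain factors LHX6 and LHX8 act downstream of it. *Lhx6* is best known for interneurons that migrate to the cortex, and *Lhx8* for the cholinergic neurons of the basal forebrain and septum. *Isl1*, also a LIM-homeodomain gene, is known for striatal projection neurons of the lateral ganglionic eminence (LGE) and for cholinergic neurons.

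All 4 genes lie on the minus strand of GRCm38 (mm10). *Nkx2-1* (ENSMUSG00000001496) is at chr12:56531958-56536908 with 2 annotated transcripts and overlaps the antisense gene *Gm26973*. *Lhx6* (ENSMUSG00000026890) is at chr2:36081953-36105408 with 9 transcripts, *Lhx8* (ENSMUSG00000096225) at chr3:154306294-154330659 with 5, and *Isl1* (ENSMUSG00000042258) at chr13:116298281-116309689 with 5. No stretch of 31 bases is shared between transcripts of any pair of the 4, and 4 of 4759 such stretches of *Lhx6* are shared with Lhx9.

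The stretches just upstream of their transcription starts are shown because pairs of the 4 genes were found in the same cells (co-detection is described further on). Sequences are RefSeq promoters of GRCm38.p6, cut to the part outside annotated exons, read on the gene's own strand. Capitals mark AAGTG, the core of the sequence NKX2-1 binds, or its complement CACTT, and TAATTG or TAATTA, a core that LIM-homeodomain factors bind. The *Nkx2-1* stretch is chr12:56536909-56537158, that of *Lhx6* is chr2:36104061-36104310 (1 of 3 windows, inside the gene body, shown because it is the one with matches), that of *Lhx8* is chr3:154330660-154330810 and that of *Isl1* is chr13:116309690-116309938.
Nkx2-1: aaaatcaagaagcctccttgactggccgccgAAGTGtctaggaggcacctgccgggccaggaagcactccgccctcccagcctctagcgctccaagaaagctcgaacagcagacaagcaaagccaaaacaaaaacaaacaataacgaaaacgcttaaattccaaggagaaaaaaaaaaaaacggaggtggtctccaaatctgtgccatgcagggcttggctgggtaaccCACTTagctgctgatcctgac
Lhx6: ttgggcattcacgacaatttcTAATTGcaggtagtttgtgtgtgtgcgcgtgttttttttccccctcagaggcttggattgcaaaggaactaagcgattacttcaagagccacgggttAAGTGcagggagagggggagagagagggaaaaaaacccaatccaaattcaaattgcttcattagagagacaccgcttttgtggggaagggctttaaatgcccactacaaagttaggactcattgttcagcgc
Lhx8: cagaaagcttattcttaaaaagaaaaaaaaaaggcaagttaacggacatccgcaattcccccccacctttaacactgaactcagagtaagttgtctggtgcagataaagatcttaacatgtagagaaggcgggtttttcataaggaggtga
Isl1: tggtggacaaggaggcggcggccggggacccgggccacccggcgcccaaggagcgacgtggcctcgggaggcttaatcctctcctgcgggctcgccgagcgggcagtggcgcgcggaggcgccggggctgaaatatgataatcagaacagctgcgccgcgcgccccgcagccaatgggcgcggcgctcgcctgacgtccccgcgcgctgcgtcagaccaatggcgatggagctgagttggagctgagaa
The *Nkx2-1* stretch held AAGTG 2 times over both strands, the *Lhx6* stretch held AAGTG 1 time and TAATTG 1 time, and neither set of letters occurred in those of *Lhx8* and *Isl1*. The 2 other *Lhx6* windows, 1 upstream of the outermost start and 1 inside the gene, held neither. AAGTG is present in 40.7% of all 32851 RefSeq promoter windows of the same kind and TAATTA or TAATTG in 11.3%, so that these matches are common and describe the letters only.

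Each count stands for 1 caught transcript molecule with its own identifier (UMI). After removal of barcodes with a deviating mitochondrial share and of doublets, 5365 of 5827 barcodes of the septal library (median 12856 UMIs) and 11595 of 14283 of the vesicle library (median 8989 UMIs) were kept, and 1 barcode sequence occurred in both. Clusters were made without the 4 genes and named by their likeness to marker lists. Non-neural cells (blood, vessel, mesenchyme and macrophage-like) gave the background for the 4 genes. In 70 such septal cells (median 18921 UMIs), *Nkx2-1* was found in 5.71% and *Isl1* in 4.29%, and *Lhx6* and *Lhx8* in 0 cells, where 3 cells would make 4.29%. In 974 such vesicle cells (median 8730 UMIs), *Nkx2-1* was found in 3.08%, *Lhx6* in 0.411%, *Lhx8* in 0.924% and *Isl1* in 0.924%. Levels below are CPM, the UMIs of a gene summed over a class and scaled to 1000000 UMIs of all genes, with exact Poisson 95% intervals, and all intervals cover counting error only. Levels are compared between classes of cells within a library and not between genes.

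Across the septal library, *Nkx2-1* was found in 612 cells (11.4%) with 3530 UMIs, *Isl1* in 734 cells (13.7%) with 3872 UMIs and *Lhx8* in 100 cells (1.86%) with 384 UMIs. *Lhx6* was found in 11 cells (0.205%), each with 1 UMI, which is too few for any comparison. Across the vesicle library, *Nkx2-1* was found in 2321 cells (20.02%), *Isl1* in 1088 (9.38%), *Lhx8* in 602 (5.19%) and *Lhx6* in 286 (2.47%). Many of these cells rest on single molecules. In the vesicle, 148 of the 286 *Lhx6* cells and 642 of the 2321 *Nkx2-1* cells held 1 UMI, and the highest counts in 1 cell were 9 for *Lhx6*, 46 for *Nkx2-1*, 56 for *Lhx8* and 65 for *Isl1*.

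*Nkx2-1* was found in apical progenitors (APs) as well as in neurons. In the vesicle, its level was highest in GABAergic-like neurons, at 213 CPM (202 to 224), followed by subpallial-like APs at 164 CPM (160 to 168) and differentiating subpallial-like cells at 157 CPM (145 to 169), and the last 2 have overlapping intervals. The share of cells with a UMI followed another order, with 1298 of 2371 subpallial-like APs (54.7%), 380 of 887 GABAergic-like neurons (42.8%) and 152 of 420 differentiating cells (36.2%), whose median depths were 10315, 6562 and 8443 UMIs. With each cell thinned to the same depth, these shares were 36.0% (34.0 to 38.0), 34.3% (31.1 to 37.6) and 28.2% (23.9 to 32.8). The intervals of APs and GABAergic-like neurons then overlap, and so do those of GABAergic-like neurons and differentiating cells. In CPM, septal-like APs (29.0, 137 of 916 cells) and ventral pallial-like (VP) APs (21.0, 120 of 1317 cells) were well below these classes. So were septal glutamatergic-like neurons (19.5 CPM, 10 of 85 cells). All non-neural cells together were at 8.02 CPM, but the macrophage-like cells among them were at 27.5 CPM (5 of 67 cells) and the unnamed shallow cluster at 32.3 CPM, so that these lower levels do not stand above every background. The value for neurons depended on the clustering, at 145 CPM at a resolution of 0.8 and 152 CPM when the 4 genes and cell cycle genes entered it, both below the value given here for APs.

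In septal explants, *Nkx2-1* was at 150 CPM (138 to 163) in differentiating subpallial-like cells and at 133 CPM (127 to 139) in septal-like APs, where 224 of 932 cells (24.0%) held it. GABAergic-like neurons were at 107 CPM (92.9 to 123), subpallial-like APs at 58.1 CPM (54.1 to 62.2; 163 of 884 cells, 18.4%) and septal glutamatergic-like neurons at 31.01 CPM (25.6 to 37.2). Pallial-like APs were at 2.38 CPM with 25 of 845 cells (2.96%), no more often than in non-neural cells. *Nkx2-1* was thus higher in septal-like than in subpallial-like APs of the septal explants, with intervals that do not overlap, whereas the subpallial-like APs of the vesicle were above its septal-like APs. The septal value of differentiating cells ranged from 137 to 342 CPM over the other settings, which changed the cells that make up this class.

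*Isl1* was found mainly in neurons. Its septal level was 515 CPM (483 to 548) in GABAergic-like neurons, 159 of 167 of which (95.2%) held it, 369 CPM (350 to 389) in septal glutamatergic-like neurons (139 of 341 cells, 40.8%) and 343 CPM (324 to 362) in differentiating subpallial-like cells (243 of 332 cells, 73.2%). The last 2 levels have overlapping intervals. Subpallial-like APs were at 6.17 CPM (69 of 884 cells, 7.81%) and septal-like APs at 3.54 CPM, and APs of the cortical hem-like cluster were at 19.7 CPM through 7 cells with 43 UMIs. In the vesicle, *Isl1* was at 354 CPM (340 to 369) in GABAergic-like neurons (550 of 887 cells, 62.0%), at 234 CPM (200 to 272) in septal glutamatergic-like neurons (30 of 85 cells, 35.3%), at 105 CPM (95.6 to 115) in differentiating cells and at 9.40 CPM in subpallial-like APs. *Isl1* was therefore present in neurons of both transmitter types in either library.

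*Lhx8* was at 142 CPM (125 to 160) in the GABAergic-like neurons of the septal library (46 of 167 cells, 27.5%) and at 24.6 CPM (19.7 to 30.2) in differentiating cells (30 of 332 cells), and at 0.359 CPM in subpallial-like APs. In the vesicle it was at 327 CPM (313 to 341) in GABAergic-like neurons (386 of 887 cells, 43.5%), at 18.8 CPM in differentiating cells (42 of 420) and at 3.54 CPM in subpallial-like APs (77 of 2371 cells, 3.25%), and 8 of 185 Cajal-Retzius-like neurons held it at 17.1 CPM. *Lhx6* was at 71.9 CPM (65.5 to 78.7) in vesicle GABAergic-like neurons, where 238 of 887 cells (26.8%) held it, at 4.27 CPM in differentiating cells (9 of 420) and at 0.268 CPM in subpallial-like APs, where its share (10 of 2371 cells, 0.422%) was that of non-neural cells (0.411%). In septal GABAergic-like neurons 5 of 167 cells held *Lhx6*, in differentiating cells 4 of 332 and in subpallial-like APs 0 of 884, where 3 cells would make 0.339%. *Lhx6* and *Lhx8* were thus neuronal in their levels and absent from most progenitors. With each cell thinned to the same depth, the shares of vesicle GABAergic-like neurons became 34.3% for *Nkx2-1*, 18.1% for *Lhx6*, 39.5% for *Lhx8* and 50.8% for *Isl1*.

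**Figure D1:**
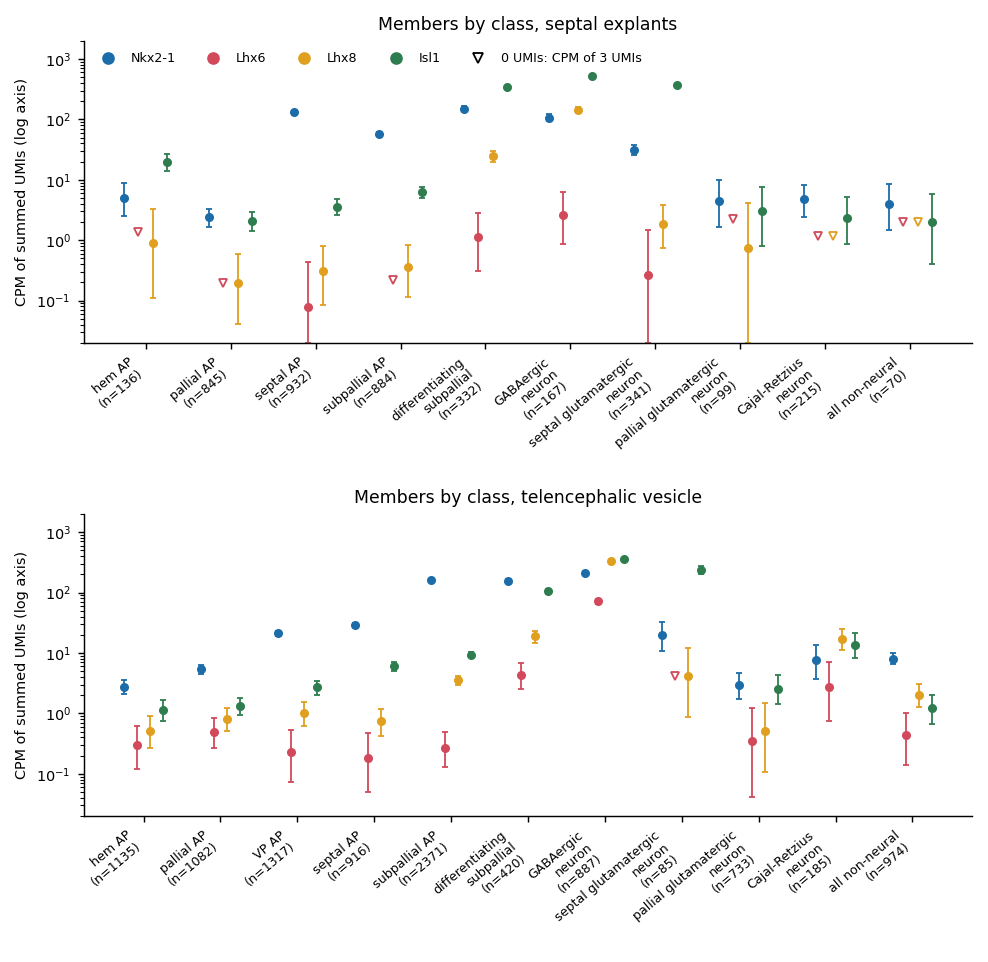
Level of each of the 4 genes (CPM of summed UMIs, log axis) in each class of septal (top) and vesicle (bottom) cells, with exact Poisson 95% intervals as bars and an open triangle at the CPM of 3 UMIs where no UMI was counted. *Nkx2-1* extends over subpallial-like and septal-like APs and neurons, *Isl1* is high in GABAergic-like and septal glutamatergic-like neurons, and *Lhx6* and *Lhx8* have their highest values in GABAergic-like neurons.

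Clusters within these classes differed in the 4 genes. None of the 4 was used to make the clusters, but neighbouring genes, such as *Sfta3-ps* 2530 bases from *Nkx2-1*, were not left out. Among vesicle subpallial-like APs, *Nkx2-1* was at 317 CPM (308 to 326) in cluster 4, 1011 of 1102 cells of which (91.7%) held it, and at 49.6 CPM in cluster 0 and 39.9 CPM in cluster 1. Cluster 4 was led by *Sfta3-ps*, *Gpr50*, *Cdh19* and *Fndc1* and also by *Shh*, the ligand that induces *Nkx2-1*, and by *Olig2*, a progenitor factor of the MGE. Vesicle VP-like APs held *Nkx2-1* mostly in cluster 11 (51.3 CPM, 107 of 561 cells). Among septal explant cells, *Nkx2-1* was at 200 CPM in septal-like AP cluster 9 (114 of 348 cells), led by *Fgf17*, *Wnt1*, *Tox2* and *Olig1*, at 122 CPM in cluster 0 and at 23.1 CPM in cluster 10, whereas the 3 subpallial-like AP clusters spanned 49.8 to 72.9 CPM.

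The 3 GABAergic-like clusters of the vesicle held different combinations. Cluster 10 (136 cells), led by the striatal genes *Tac1* and *Ebf1* and by *Pcp4*, had *Isl1* at 666 CPM (130 cells), *Nkx2-1* at 11.4 CPM (6 cells), *Lhx8* at 15.2 CPM (9 cells) and no *Lhx6* UMI. Cluster 13 (238 cells), led by the homeobox genes *Gbx1* and *Gbx2* and by *Shh*, *Npy* and *Calb1*, had *Lhx8* at 880 CPM (223 cells), *Lhx6* at 192 CPM (150 cells), *Nkx2-1* at 304 CPM (173 cells) and *Isl1* at 78.6 CPM (50 cells). Cluster 18 (513 cells), led by *Sp9* and the *Dlx* genes, general factors of subpallial neurons, held all of them at levels in between, or near the upper ones for *Nkx2-1*, with *Nkx2-1* at 246 CPM, *Lhx8* at 195 CPM, *Lhx6* at 44.8 CPM and *Isl1* at 362.5 CPM.

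The septal library had 1 GABAergic-like cluster, with the values given for the class. Its differentiating subpallial-like cells fell into cluster 4, with *Nkx2-1* at 232 CPM, *Lhx8* at 37.6 CPM and *Isl1* at 483 CPM, and cluster 16, with *Nkx2-1* at 40.9 CPM (8 of 108 cells) and *Isl1* at 155 CPM. Septal glutamatergic-like neurons split likewise. In cluster 6, led by *Shox2* and *Onecut2*, *Nkx2-1* was at 58.5 CPM (29 of 196 cells) and *Isl1* at 434 CPM (94 cells), and in cluster 24, led by *Gng8*, *Nefl* and *Onecut3*, *Nkx2-1* was at 4.19 CPM and *Isl1* at 306 CPM (45 of 145 cells). Both clusters thus held *Isl1*, and 1 of them *Nkx2-1* above the background.

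**Figure D2:**
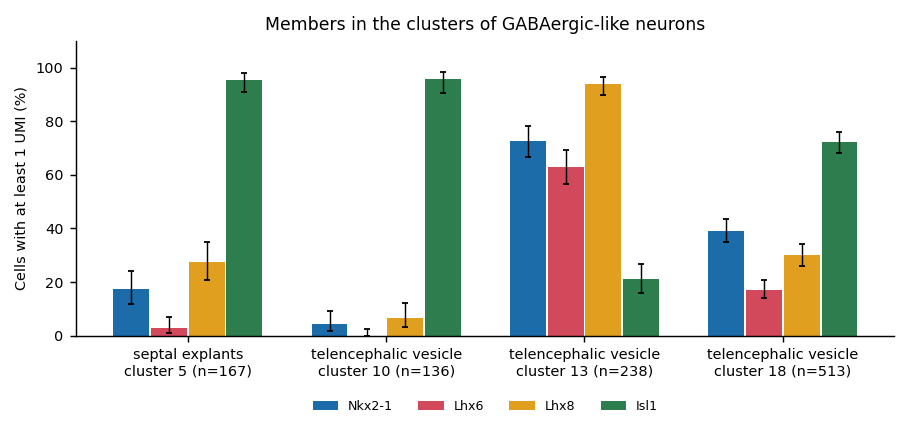
Share of cells with at least 1 UMI of each of the 4 genes (percent, bars from 0) in the septal and the 3 vesicle clusters of GABAergic-like neurons, with exact Clopper-Pearson 95% intervals. *Isl1* was found in 130 of 136 cells of vesicle cluster 10 with little of the other genes, and *Lhx8* in 223 and *Isl1* in 50 of the 238 cells of cluster 13.

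To place the genes along differentiation, subpallial-like APs, differentiating cells and GABAergic-like neurons were ranked by how many UMIs of neuronal genes they held relative to UMIs of AP genes, on a log2 scale, and split into 10 bins of equal cell number. In the vesicle (367 to 368 cells a bin), *Isl1* was at 2.24 CPM in bin 1, 14.2 in bin 6, 36.0 in bin 7, 222 in bin 8 and 387 in bin 10. *Lhx8* was at 1.12 CPM in bin 1, 6.30 in bin 6, 17.9 in bin 7, 119 in bin 8 and 364 in bin 10. *Lhx6* lay between 0.16 and 0.56 CPM in bins 1 to 6 and was at 2.36 in bin 7, 24.6 in bin 8, 74.3 in bin 9 and 74.2 in bin 10. All 3 LIM-homeodomain genes thus had their largest step, as a ratio, between bins 7 and 8. *Nkx2-1* was present throughout, at 255 CPM in bin 1, 120 in bin 5, 274 in bin 8 and 130 in bin 10. Its highest bin was bin 8, but the first bin was highest with 5 bins or with doublets kept.

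In the septal library (138 to 139 cells a bin), *Isl1* went from 4.88 CPM in bin 1 and 14.2 in bin 6 to 80.4 in bin 7, 269 in bin 8, 566 in bin 9 and 540 in bin 10. *Lhx8* was at 0.982 CPM in bin 6, 6.56 in bin 7, 26.3 in bin 8, 106 in bin 9 and 98.3 in bin 10. *Lhx6* had no UMI in bins 1 to 7. *Nkx2-1* was at 148 CPM in bin 1, 44.1 in bin 3, 52.3 in bin 6, 173 in bin 9 and 64.5 in bin 10, and with all deposited barcodes bin 1 was the highest. In CPM, *Nkx2-1* was thus high in bin 1 of both libraries and lower in the middle of the axis. It was high again in bins 8 or 9, where the LIM-homeodomain genes were high too. Raw vesicle counts did not follow this, with 874 UMIs in 181 cells of bin 5 and 847 UMIs in 174 cells of bin 8. Septal bin 3 held 105 UMIs in 20 cells and bin 9 held 246 UMIs in 30 cells.

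**Figure D3:**
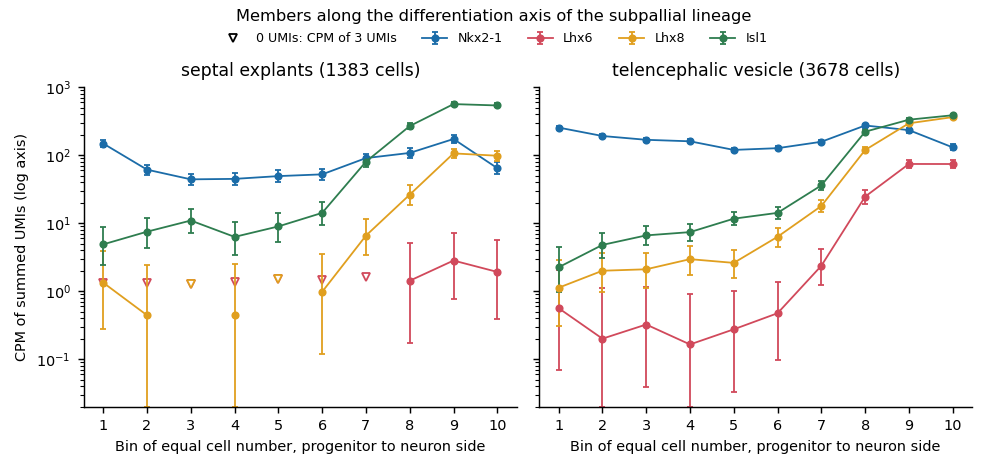
Level of the 4 genes (CPM of summed UMIs, log axis) in 10 bins of equal cell number, from the progenitor to the neuron side, for 1383 septal and 3678 vesicle cells, with exact Poisson 95% intervals. *Isl1*, *Lhx8* and, in the vesicle, *Lhx6* are low in bins 1 to 6 and high in bins 9 and 10, whereas *Nkx2-1* is present in every bin.

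Markers of division were compared over the same cells. In the vesicle, 80.9% of *Nkx2-1* cells held a UMI of the division genes Mki67, Top2a or Cdk1, against 42.8% of *Lhx6*, 50.5% of *Lhx8* and 59.2% of *Isl1* cells and 78.8% of all cells of the lineage. For septal cells the shares were 74.2% for *Nkx2-1*, 48.1% for *Lhx8*, 56.5% for *Isl1* and 78.3% for all. In the vesicle, *Lhx6* cells thus held these genes least often, and *Nkx2-1* cells were near the whole lineage. Cells differ in depth, so that these shares are no count of dividing cells.

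Co-detection in the same cell was compared with the number expected from the shares of both genes within each cluster, in the cells of the subpallial lineage. In the vesicle (3678 cells), 219 cells held both *Lhx6* and *Lhx8*, which is 85.2% of the 257 *Lhx6* cells and 43.4% of the 505 *Lhx8* cells and 1.30 times the number expected (interval 1.14 to 1.49). *Lhx6* was thus mostly found in cells that also held *Lhx8*. *Nkx2-1* was found in 77.8% of *Lhx6* cells (200 cells, 1.30 times expected, 1.13 to 1.49), in 78.8% of *Lhx8* cells (398 cells, 1.38 times, 1.25 to 1.52) and in 43.2% of the 877 *Isl1* cells (379 cells, 1.10 times, 0.990 to 1.21). *Lhx6* and *Isl1* were found together in 72 cells, 0.725 times the number expected (0.567 to 0.913), and 0.447 times when at least 2 UMIs of each were asked for. *Lhx8* and *Isl1* were together in 218 cells, 1.15 times expected (1.005 to 1.32), or 1.09 times (0.948 to 1.24) with cells matched for depth, where the interval includes 1.

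The pairs differed between vesicle clusters. In cluster 13, *Lhx6* and *Isl1* were together in 14 cells where 31.5 were expected, a ratio of 0.444 (0.243 to 0.745). There, *Lhx6* and *Lhx8* (142 cells) stood at 1.01 and *Nkx2-1* and *Lhx6* at 0.972. *Lhx8* was in 223 of the 238 cells of cluster 13, so that a ratio with it could not lie far above 1. In cluster 18, *Lhx6* and *Lhx8* were together in 72 cells, 2.73 times the number expected (2.13 to 3.43), *Nkx2-1* and *Lhx6* in 82 cells (2.38 times, 1.89 to 2.95) and *Nkx2-1* and *Lhx8* in 134 cells (2.22 times, 1.86 to 2.63). In the same cluster, the ratios with *Isl1* were 0.867 for *Lhx6* (0.653 to 1.13), 0.999 for *Lhx8* and 0.993 for *Nkx2-1*. *Nkx2-1*, *Lhx6* and *Lhx8* were therefore co-detected within cluster 18. The intervals of their pairs with *Isl1* include 1. However, *Isl1* was in 370 of the 513 cells of this cluster, so that ratios with it could not reach those of the other pairs. Among vesicle subpallial-like APs, 31 cells held both *Lhx8* and *Isl1* where 5.48 were expected (5.66 times, 3.84 to 8.03), and the ratio was 2.098 (1.43 to 2.98) when cells were also matched for depth. Whether remaining doublets take part in these cells was not tested.

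In the septal lineage (1383 cells), 54 of the 81 *Lhx8* cells held *Nkx2-1*, 2.98 times the number expected (2.24 to 3.89), or 2.44 times (1.83 to 3.18) with cells matched for depth. Among GABAergic-like neurons alone, 25 cells held both where 7.99 were expected (3.13 times, 2.03 to 4.62). *Lhx8* and *Isl1* were together in 73 cells (1.08 times, 0.850 to 1.36) and *Nkx2-1* and *Isl1* in 112 cells (1.07 times, 0.880 to 1.29). As 67.3 of the 81 *Lhx8* cells were expected to hold *Isl1*, the ratio of that pair could not lie far above 1. With at most 9 cells, the pairs with *Lhx6* have wide intervals. All 9 *Lhx6* cells of the lineage also held *Isl1*, where 7.74 were expected (1.16 times, 0.532 to 2.21), and 8 of the 9 held all 4 genes. In septal glutamatergic-like neurons, 34 of the 36 *Nkx2-1* cells held *Isl1*, 2.11 times the number expected (1.46 to 2.95), and all 6 *Lhx8* cells did. In those of the vesicle, 6 of 10 *Nkx2-1* cells held *Isl1*, with an interval of the ratio (0.624 to 3.70) that includes 1.

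**Figure D4:**
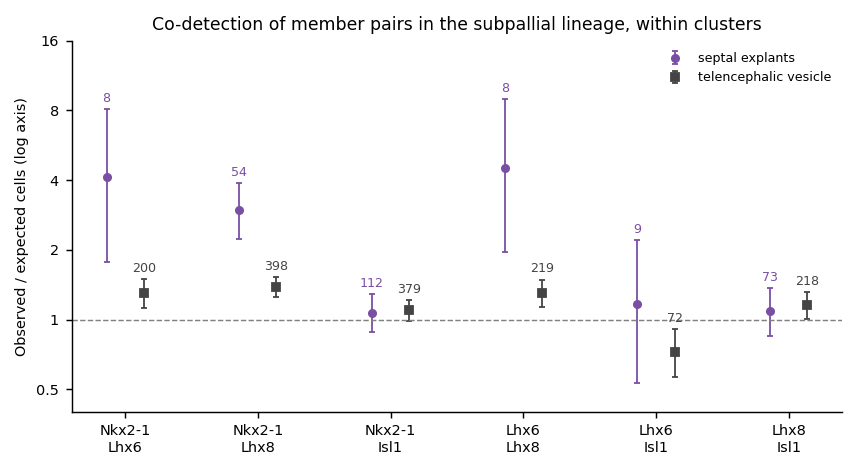
Number of cells holding both genes of a pair divided by the number expected from the shares of each gene within clusters (log axis), with 95% intervals and the number of cells with both above each point. In the vesicle lineage the pair of *Lhx6* and *Isl1* lies below 1 (0.725) and the pairs among *Nkx2-1*, *Lhx6* and *Lhx8* lie above it (1.30 to 1.38), and in the septal lineage *Nkx2-1* and *Lhx8* stand at 2.98.

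Counted as combinations, 327 of the 887 vesicle GABAergic-like neurons (36.9%) held *Isl1* without the other 3 genes, 118 (13.3%) held *Nkx2-1*, *Lhx6* and *Lhx8* without *Isl1*, 87 held *Nkx2-1*, *Lhx8* and *Isl1*, 54 held all 4, and 92 (10.4%) held none. *Lhx6* alone was found in 6 cells. Of the septal library, 111 of 167 GABAergic-like neurons (66.5%) held *Isl1* alone, 21 held *Lhx8* and *Isl1*, and 18 held *Nkx2-1*, *Lhx8* and *Isl1*. Among subpallial-like APs, *Nkx2-1* alone was found in 1155 of 2371 cells of the vesicle (48.7%), where 1004 held none, and in 146 of 884 of the septal library (16.5%), where 664 held none.

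Neurons of the named neuron classes were also sorted by their transmitter genes (GABAergic genes *Gad1*, Gad2 or *Slc32a1*, glutamatergic gene *Slc17a6*). Septal cluster 8 (269 cells), which stayed unnamed, lay on the neuron side of the axis (4.25) and was left out, so that all neurons here means those counted. Of the 305 septal neurons with *Isl1*, 171 (56.1%) held GABAergic genes only, 54 (17.7%) glutamatergic genes only, 9 both and 71 neither. Of the 53 septal neurons with *Lhx8*, 47 (88.7%) were of the GABAergic kind, and of the 75 with *Nkx2-1*, 36 (48.0%) were, against 22.3% of all septal neurons. In the vesicle, the GABAergic share was 95.4% of 241 *Lhx6* neurons, 91.2% of 399 *Lhx8* neurons, 84.2% of 589 *Isl1* neurons and 82.8% of 412 *Nkx2-1* neurons, against 43.3% of all neurons. Glutamatergic genes alone were found in 20 of the 589 *Isl1* and 24 of the 412 *Nkx2-1* neurons of the vesicle. Of all vesicle neurons, 775 of 1890 (41.01%) held them alone, and of all septal neurons 329 of 822 (40.02%). The septal *Isl1* neurons thus included a glutamatergic fraction as well as the GABAergic one. In both libraries, this fraction was smaller among *Isl1* neurons than among all neurons of the named classes.

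The reporters of the septal library separate part of the cells by embryo, but E12.5 and descent from *Dbx1* progenitors cannot be told apart in them. A cell was counted for tdTomato from 1 UMI and for YFP from 3 UMIs. Of 400 cells with tdTomato, 38 also passed the YFP limit, 8 of them in the lineage, although the reporters came from different embryos. These cells were kept in both groups, and why they held both reporters was not tested. Of 94 lineage cells with tdTomato, 31 (33.0%, interval 23.6 to 43.4) held *Nkx2-1*, and of 795 with YFP, 149 (18.7%, 16.1 to 21.6) did. Among subpallial-like APs, the shares were 19 of 59 (32.2%, 20.6 to 45.6) at 139 CPM and 99 of 538 (18.4%, 15.2 to 21.9) at 50.4 CPM. Among the cells counted, the *Nkx2-1* share was thus higher in tdTomato cells over the whole lineage, with intervals that do not overlap. The intervals of the subpallial-like AP shares overlap. All these intervals cover counting error only. Embryos within a set cannot be told apart, so that the intervals cannot decide whether the embryo sets differ. In septal-like APs, which are not part of the lineage, 22 of 77 tdTomato cells (28.6%) and 138 of 560 YFP cells (24.6%) held *Nkx2-1*, with overlapping intervals. Septal glutamatergic-like neurons, outside that lineage, went the other way, with *Nkx2-1* in 1 of 52 tdTomato cells (1.92%, 0.0487 to 10.3) and 25 of 177 YFP cells (14.1%, 9.35 to 20.1). *Isl1* was found in 36.2% of tdTomato and 31.6% of YFP lineage cells. At 2 UMIs the tdTomato share was 22.3%, and the YFP share was not computed. The classes of the lineage differed. Among subpallial-like APs, 11 of 59 tdTomato cells (18.6%, 9.69 to 30.9) and 33 of 538 YFP cells (6.13%, 4.26 to 8.51) held *Isl1*. Among differentiating cells, 17 of 28 (60.7%) and 120 of 158 (75.9%) did. *Lhx8* was found in 6 (6.38%) of the tdTomato and 45 (5.66%) of the YFP lineage cells, and *Lhx6* in 2 and 6 cells.

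Cells with and without *Nkx2-1* were then compared within subpallial-like APs, for all genes with at least 50 UMIs, by the ratio of CPM, and a gene was called higher or lower at a difference of 2-fold or more. With 1 library per condition, these calls describe cells of that library. In the septal library (163 cells with *Nkx2-1*, 721 without, median depths 13685 and 14218), 55 of 9879 genes (0.557%) were called higher and 113 (1.14%) lower. Higher were *Dbx1*, a homeobox gene of septal and VP progenitors, by 6.22-fold (4.23 to 9.22, in 24.5% against 5.55% of cells), *Sulf1* (5.31-fold), which edits the heparan sulphates that bind the SHH protein, *Mbip* (4.81-fold, 4.24 to 5.45), *Tox2* (4.09-fold), *Klf9* (3.498-fold) and the LIM-only gene *Lmo1* (2.43-fold, 2.16 to 2.74). Of the hedgehog pathway, the targets *Gli1* (2.66-fold) and *Ptch1* (2.53-fold, 1.98 to 3.21) were higher and the co-receptors *Boc* (ratio 0.40) and *Gas1* (0.42) lower, out of 7 measured of 11 genes.

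Lower in septal *Nkx2-1* cells were genes of the pallial and subpallial progenitor lists, with ratios of 0.28 (0.22 to 0.36) for *Pax6*, 0.35 (0.26 to 0.45) for the LGE factor *Gsx2*, 0.35 for *Dlx2*, 0.42 for *Dlx1* and 0.48 for *Emx2*. Of the pallial list, 3 of 6 measured genes were lower and 0 higher, and of the subpallial progenitor list, 3 of 8 were lower and 0 higher. *Isl1* did not differ beyond its interval (1.12, 0.61 to 1.92). Within cluster 11 alone, chosen after the data were seen, 52 of 6946 genes (0.749%) were higher and 74 (1.07%) lower, with *Dbx1* at 4.40-fold and *Mbip* at 6.47-fold. The number of genes called higher was 112 with all deposited barcodes and 86 at a resolution of 0.8.

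In the vesicle (1298 cells with *Nkx2-1*, 1073 without, median depths 10986.5 and 9580), 248 of 12909 genes (1.92%) were higher and 108 (0.837%) lower. *Shh* itself was 28.5-fold higher (20.6 to 40.6, 308 against 21 cells), and so were *Fndc1* by 37.3-fold (14.4 to 138, 100 against 3 cells), *Sfta3-ps* by 22.3-fold (19.8 to 25.3), *Lgr5* by 16.8-fold, *Cdh19* by 15.8-fold and *Gpr50* by 12.2-fold. Genes of the neurons and other factors of the eminences were also higher, namely *Lhx8* by 3.74-fold (2.33 to 6.28), *Isl1* by 3.65-fold (2.74 to 4.93), *Gsx1* by 4.30-fold, *Nxph1* by 4.15-fold, the receptor gene *Erbb4* by 3.53-fold, *Olig2* by 3.01-fold and *Lmo1* by 2.42-fold. Lower were *Pax6* (ratio 0.27), *Emx2* (0.34), *Lhx2* (0.48) and the hedgehog genes *Boc* (0.29), *Gli2* (0.29) and *Gas1* (0.29). Of the hedgehog list 2 of 11, *Shh* and *Hhip*, were higher and 5 lower. The targets *Gli1* and *Ptch1*, called higher in the septal library, were not called here. Of the MGE interneuron list 4 of 14 were higher and 0 lower, and of the pallial list 0 of 5 higher and 2 lower.

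Cells with and without *Nkx2-1* also differed in their clusters, with 77.9% of the former in cluster 4 and 71.1% of the latter in cluster 0. Within cluster 0 alone, a choice made after the data were seen, 58 of 11655 genes (0.498%) were higher and 42 (0.36%) lower. *Sfta3-ps* was still 21.8-fold higher there and *Isl1* 2.19-fold, and the ratio was 3.81 for *Sulf1*, 2.09 for *Erbb4*, 1.61 for *Olig2*, 1.04 for *Zic4*, 0.99 for *Lmo1* (0.92 to 1.05), 0.62 for *Pax6*, 0.69 for *Lhx2* and 0.74 for *Boc*. At a resolution of 0.8, 171 genes were lower. *Sfta3-ps* lies 2530 bases downstream of *Nkx2-1* on the same strand and *Mbip*, 186063 bases away, is its nearest protein-coding neighbour on that side. Whether reads running past the end of *Nkx2-1* take part in the count of *Sfta3-ps* was not tested.

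Vesicle cells of the subpallial lineage with *Lhx6* but no *Lhx8* (38 cells, median 8199 UMIs) were compared with those with *Lhx8* but no *Lhx6* (286 cells, median 7643.5 UMIs). The groups differed in their clusters, with 42.1% against 28.7% in cluster 18, 21.1% against 28.3% in cluster 13 and 0 against 9 cells in cluster 10, which *Ebf1* leads. Both groups also held subpallial-like APs, with 2 against 27 cells in cluster 0, 1 against 3 in cluster 1 and 7 against 47 in cluster 4. Differentiating cluster 2 gave 4 against 37 cells. As given above, the *Lhx6* share of such APs was that of non-neural cells. Of 9290 genes, 138 (1.49%) were higher in the *Lhx6* cells and 330 (3.55%) lower. *Nr2f2*, a factor of caudal and migrating interneurons, was 6.82-fold higher (5.60 to 8.30), in 21 of 38 (55.3%) against 60 of 286 cells (21.0%), although 88 of its 180 UMIs were in 1 cell. *Epha5* was 5.11-fold higher (4.08 to 6.37), *Lmo3* 2.98-fold (1.96 to 4.42) and *Erbb4* 2.94-fold (2.67 to 3.25). *Ldb2*, which codes for a cofactor of LIM-homeodomain proteins, was 2.02-fold higher (1.07 to 3.56). However, 1 *Lhx6* cell held 129 UMIs of *Erbb4*, which was found in 60.5% against 55.2% of cells. Of *Epha5*, found in 36.8% against 25.9% of cells, 27 UMIs were in 1 *Lhx6* cell. *Nr2f1* was 3.11-fold higher (65.8% against 42.3% of cells), but 111 of its 254 UMIs came from 1 cell. *Nxph1* was 8.23-fold higher with 58 of its 109 UMIs in 1 cell, as were 28 of 33 of *Ror2* and 14 of 16 of *Nkx6-2*, so that these values rest largely on single cells.

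Lower in the *Lhx6* cells were *Isl1* (ratio 0.46, 0.32 to 0.65, in 14 of 38 against 160 of 286 cells), *Zic4* (0.38, 0.17 to 0.73), a gene of septal neurons, *Cdon* (0.35, 0.11 to 0.85) and *Gsx1* (0.38, 0.12 to 0.90). *Ebf1* had 1 against 118 UMIs, a ratio of 0.08 (0.0020 to 0.45), with 44 of the 118 in 1 cell. *Nkx2-1* stood at 0.77 (0.63 to 0.93), in 60.5% against 77.3% of cells, and was not called. *Slc10a4*, a gene of cholinergic neurons, had 0 against 62 UMIs. The number of genes lower was 518 with another random seed, and with cells thinned to 1 depth 70 genes were higher. In the septal lineage, 1 cell held *Lhx6* without *Lhx8* and the comparison could not be made.

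Among vesicle GABAergic-like neurons, 550 cells with *Isl1* (median 6998.5 UMIs) were compared with 337 without (median 6038). Of 9634 genes, 246 (2.55%) were higher and 104 (1.08%) lower. Striatal genes were higher, with *Ebf1* at 87.6-fold (53.8 to 153, 92 against 6 cells), *Tac1* at 78.9-fold (21.7 to 654, 40 against 2 cells), *Zfp503* at 4.40-fold and *Six3* at 2.16-fold, and of the striatal list 5 of 10 were higher and 0 lower. Of the progenitor list, *Gsx1* (5.31-fold, 2.69 to 11.97), *Otx2* (3.06-fold, 1.73 to 5.83) and *Olig2* (2.46-fold) were also higher. *Aldh1a3*, which codes for an enzyme of retinoic acid synthesis, had 50 against 1 UMIs, a ratio of 24.6 (4.22 to 993). Lower were the MGE interneuron genes *Npy* (ratio 0.06), *Nxph1* (0.14), *Calb1* (0.17) and *Erbb4* (0.19), with 5 of 16 of that list lower and 0 higher. The cholinergic-list genes *Gbx1* (0.13) and *Gbx2* (0.15), and *Shh* (0.13), were lower too. Of the cholinergic list, 2 of 5 measured genes were thus lower, and 1, *Zic4*, was higher. The other 3 genes stood at 0.17 for *Lhx6* (0.14 to 0.21), 0.41 for *Lhx8* and 0.73 for *Nkx2-1*.

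This contrast too followed the clusters, with 23.6% of the *Isl1* cells in cluster 10 and 55.8% of the cells without *Isl1* in cluster 13. Within cluster 18 alone, again a choice made after the data were seen, 76 of 7978 genes (0.953%) were higher and 30 (0.376%) lower. *Lhx6* was still lower there (ratio 0.50, 0.36 to 0.69), whereas *Lhx8* stood at 0.90 (0.76 to 1.06) and *Nkx2-1* at 1.13 (0.97 to 1.33), both with intervals that include 1. *Gsx1* was 3.84-fold higher, *Zic4* 4.12-fold and *Six3* 1.53-fold, and the ratio of *Erbb4* was 0.64. With all deposited barcodes, 124 genes were higher in *Isl1* cells. Among septal cells, 8 of 167 GABAergic-like neurons lacked *Isl1*, too few for the comparison.

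**Figure D5:**
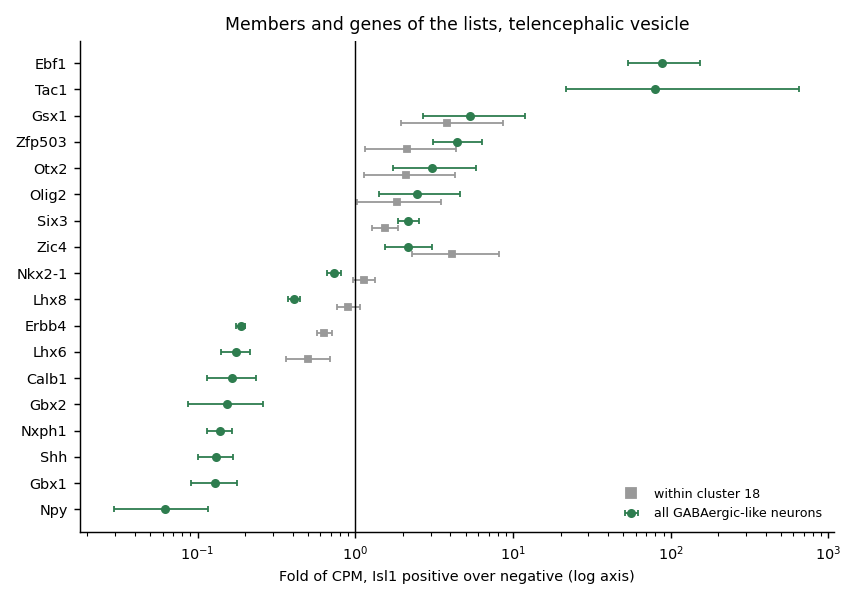
Ratio of CPM between vesicle GABAergic-like neurons with and without *Isl1* (log axis), for genes of the gene lists and for *Nkx2-1*, *Lhx6* and *Lhx8*, over all such neurons (green circles) and within cluster 18 (grey squares), with 95% counting intervals. *Lhx6* lies below 1 in both (0.17 and 0.50), whereas *Lhx8* moves from 0.41 to 0.90 and *Nkx2-1* from 0.73 to 1.13.

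Genes whose level varied most like each of the 4 across neural clusters were found by Pearson's r of log2(CPM + 1), given as a description, since clusters share a library. Across 21 vesicle clusters, *Nkx2-1* was most like *Sfta3-ps* (r 0.97), *Mbip* (0.94), *Mxra7* (0.84), *Dlx2* (0.76) and *Shh* (0.74). *Lhx6* was most like *Lhx8* (0.92), *Dlx1as* (0.83) and *Arl4d*, *Lhx8* most like *Lhx6* (0.92), *Grik3* (0.91) and *Dlx6os1* (0.90), and *Isl1* most like the monoamine transporter gene *Slc18a2* (0.91), *Dlgap3* (0.89) and *Grm4*. Across 24 septal clusters, *Nkx2-1* was most like *Mbip* (0.88), *Megf11* (0.86) and *Olig2* (0.84), *Lhx8* most like *Dlx6os1* (0.93) and *Sp9*, and *Isl1* most like *Pnoc* (0.88), *Peg10* (0.87) and *Dlx5* (0.82). The *Lhx6* order of the septal library rests on 11 UMIs. These orders depend on the measure, since with Spearman's rho 5 of 20 of these genes remained in the vesicle and 4 of 20 in the septal library.

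The dissections could hold neighbouring tissues that use the same genes. The summed level of 9 hypothalamic genes was 57.0 CPM over the septal lineage and between 28.2 CPM (*Lhx8* cells) and 63.6 CPM (*Isl1* cells) in cells with 1 of the 4 genes. *Nkx2-4* was at 0 in all kept septal cells, and *Nr5a1* was at 0 over the lineage. These were the only 2 of the 9 at 0 over the septal lineage, and 0 of the 9 were at 0 over that of the vesicle. At least 2 of the 9 genes were found in 36 of 612 septal *Nkx2-1* cells. The same held for 9 of 1383 septal lineage cells and 172 of all 5365 kept septal cells. In the vesicle the summed level was 17.2 CPM over the lineage and 12.8 to 25.8 CPM in cells with 1 of the 4 genes. The level of 6 measured peripheral sensory neuron genes was 2.16 CPM over the septal lineage (0 to 3.56 CPM in cells with 1 of the genes) and 3.43 CPM over that of the vesicle (5.74 to 9.76 CPM). For 6 retinal genes the levels were 0.927 CPM (0 to 18.3 CPM) and 0.790 CPM (0.906 to 3.08 CPM), and for 5 genes of surface epithelium 41.2 CPM (10.2 to 44.9 CPM) and 8.71 CPM (11.2 to 14.8 CPM). Over all kept septal cells, the levels were 60.0 CPM for hypothalamic, 7.77 for sensory, 7.42 for retinal and 36.3 for epithelial genes. Over all kept vesicle cells, they were 34.0, 13.5, 3.19 and 17.4 CPM in the same order. Some genes of these lists also led clusters named as forebrain classes. *Epcam* led septal-like AP cluster 0 of the septal library, and *Six6* led septal-like AP clusters 10 (septal) and 20 (vesicle). *Sim1* was among the leading genes of the septal glutamatergic-like cluster 23 of the vesicle. The summed levels are thus not specific to the other tissues. The part of cells of these tissues in the values above was not tested.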

How the data were processed

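The authors deposited raw counts (UMIs of each gene in each barcode) for 2 droplet libraries made with 10x Genomics reagents. Per the labels and the study's methods, the septal library was made with kit v2 and Cell Ranger 2.1.1 on mm10 with reporter sequences added, and the vesicle library with kit v3.1 and Cell Ranger 7.1.0 on mm10. Whether intronic reads were counted is not given in the sources used here, so that levels were not compared between the libraries.

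From these counts, barcodes within 3 MAD of the median mitochondrial share were kept, which left 5444 and 12471, and 79 (1.45%) and 876 (7.02%) of them were removed as doublets with Scrublet in scanpy 1.11.5, at a score over 0.25 that was chosen after seeing the data. The doublet shares assumed from the number of barcodes were higher, at 4.36% and 9.98%, so that doublets may remain. Log-transformed UMIs, each cell scaled to 10000, of 2000 variable genes without the 4 genes and cell cycle genes were reduced to 30 principal components. Leiden clustering (igraph 0.11.9, resolution 1.5) on 15 neighbours gave 26 and 25 clusters. A class name needed 3 markers of its list, each in at least 5% of cells and at 1.5 times the mean of other clusters. Of the septal cells 413 in 2 clusters, and of the vesicle cells 891 in 1 cluster with a median of 1078 UMIs, stayed unnamed, and a septal macrophage-like cluster of 44 cells was also led by the mesenchymal genes Col3a1 and Lum. Subpallial-like clusters whose summed UMIs of neuronal genes at least equalled those of AP genes were called differentiating, a threshold set after seeing the data. The vesicle cluster so called passed it narrowly, at 0.0302 on the log2 axis. The subpallial lineage is subpallial-like APs, differentiating cells and GABAergic-like neurons.

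The depth of a library is 83103280 UMIs (septal) and 194821794 UMIs (vesicle). Sums of UMIs have exact Poisson, shares Clopper-Pearson and ratios exact conditional binomial 95% intervals, and these cover counting error only. A 0 is given the floor of 3 counts. Thinning was to 8000 UMIs (510 shallower cells left out) and 3500 UMIs (1139 left out). The ratio of CPM used genes with at least 50 UMIs and groups of at least 20 cells, and likeness used genes with at least 200 UMIs. Cells are not replicates and each condition has 1 library, so that there are no p-values. The genes named are the 4 always, for each ratio comparison those with the 8 largest changes in each direction and up to 4 per gene list past 2-fold, and the 5 most like each of the 4, of which the text gives a part, and sex-linked and unnamed gene models were left out. Genes and lists were chosen with earlier results of these data known. Scripts used scipy 1.17.1, numpy 2.4.6, pandas 2.3.3, matplotlib 3.10.9 and Python 3.11.15, and the ratio script was checked on simulated data. Gene models are those of GENCODE on GRCm38. Alternatives tried were other filters on barcodes, cluster resolutions, seeds, UMI minimums, thinning, bins, fold limits and the likeness measure. The check of the tissue by a defining marker is not reported here.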

Additional observations from a re-analysis of the deposited data

Results flagged for a closer look

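The 4 genes were also counted in the barcodes that the filters on mitochondrial share and doublets removed, which no comparison used, and their shares there were above the limit that a count of 0 allows. Of 462 removed septal barcodes, 9.31% held *Nkx2-1*, 9.96% *Isl1* and 1.52% *Lhx8* (limit 0.649%). In kept septal cells the shares were 11.4%, 13.7% and 1.86%. Of 2688 removed vesicle barcodes, 14.8% held *Nkx2-1*, 7.70% *Isl1*, 5.58% *Lhx8* and 2.86% *Lhx6* (limit 0.112%). In kept vesicle cells they were 20.02%, 9.38%, 5.19% and 2.47%. The part of the removed barcodes in the results was not tested other than by keeping them.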

How the results depend on the processing

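Depth limits *Lhx6* above all, with 11 UMIs in the septal library, and a gene seen in 1 UMI per cell is missed in many cells. No paired analysis was possible because each condition is 1 library, and no library could be left out. Of 290 values under alternatives, 202 stayed within their counting interval or within 1.5 times a count, and 88 moved. Among these, the highest level of *Nkx2-1* moved from the neuron to the progenitor side of the axis under the settings named further on. The comparisons that need 20 cells per group could not be made in the septal library for *Lhx6* without *Lhx8* and for *Isl1*. Causes were not tested beyond what each setting changes by construction.

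For *Nkx2-1* in septal differentiating cells (150 CPM), values were 197 with all deposited barcodes, 137 with doublets kept, 342 and 167 at resolutions 0.8 and 2.5, 314 with another seed and 208 with all variable genes. In septal GABAergic-like neurons, *Lhx8* was at 120 CPM at resolution 0.8, and *Isl1* at 553 with doublets kept, 587 at resolution 2.5, 556 with another seed and 585 with all variable genes. In vesicle GABAergic-like neurons, in the order all barcodes, doublets kept, resolution 0.8, another seed, *Nkx2-1* was at 159, 176, 145 and 190 CPM, *Lhx6* at 60.2, 84.1, 82.4 and 85.1, *Lhx8* at 261, 362, 385 and 377 and *Isl1* at 263, 295, 336 and 328, and with all variable genes *Nkx2-1* was at 152, *Lhx8* at 342 and *Isl1* at 337.

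At 2 UMIs, the ratio of observed to expected cells was 4.29 for *Nkx2-1* and *Lhx8* in the septal lineage, and in the vesicle 1.56 for this pair and 0.447 for *Lhx6* and *Isl1* (0.535 in thinned cells), and with all barcodes it was 1.51 for *Lhx6* and *Lhx8*. At 2 UMIs, 22.3% of tdTomato lineage cells held *Isl1*. The highest level of *Nkx2-1* lay at 5% of the cells along the axis with all septal barcodes and with vesicle doublets kept, and at 10% with 5 vesicle bins.

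Counts of genes are given in the order 200 UMIs per gene, then 3-fold. For *Nkx2-1* in septal APs they were 6 and 7 higher and 25 and 19 lower, in vesicle APs 113 and 104 higher and 70 and 27 lower, for *Lhx6* against *Lhx8* 28 and 20 higher and 44 and 118 lower, and for *Isl1* 76 and 85 higher and 43 and 47 lower. Within 1 cluster, added after seeing the data, they were 74 lower (septal *Nkx2-1*), 58 higher and 42 lower (vesicle *Nkx2-1*), and 76 higher and 30 lower (*Isl1*). With all barcodes, 112 genes were higher for septal *Nkx2-1* and 124 for *Isl1*, and at resolution 0.8, 86 higher for septal and 171 lower for vesicle *Nkx2-1*. For *Lhx6* against *Lhx8*, 70 were higher in thinned cells and 518 lower with another seed. Of the 20 most like genes, 4 were shared with Spearman's rho, 12 with doublets kept and 11 at resolution 0.8 in the septal library, and 5 with Spearman's rho, 12 with all barcodes, 11 with doublets kept, 13 and 12 at resolutions 0.8 and 2.5 and 11 with another seed in the vesicle.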
